A study of Mus musculus with 12 samples.

Results

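The genes described here are the Wnt ligands, their receptors and co-receptors, the secreted proteins that modulate them, and the axins. They are the genes whose symbol belongs to these families, and 47 of the 16670 genes listed matched. They comprised 15 Wnt ligands, 10 frizzled receptors, 2 LRP co-receptors, 2 ROR receptors, 3 R-spondins, 3 LGR receptors, 2 ubiquitin ligases, 8 secreted antagonists and 2 axins. A further 7 symbols of the same families in the GENCODE annotation (Dkk1, Dkk4, Rspo2, Wnt3, Wnt3a, Wnt7a and Wnt8a) were not among the genes listed. Each gene listed was above 0.1 CPM in at least 3 libraries.

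The RNA came from the inguinal depot, subcutaneous white fat, of female C57BL/6 animals. Collagenase digests of tissue from 2 mice at a time were separated by centrifugation into mature adipocytes, which float, and the stromal vascular fraction, a pellet of progenitor, vascular, immune and other cells. Each fraction was represented by 3 libraries labelled Kdm5c+/–, heterozygous for the X-linked gene of an H3K4 demethylase, and 3 labelled Kdm5c+/+ (wild type), 12 libraries in all. The labels name no treatment and no other allele, and the sources used here state neither the mice's age nor the kind of Kdm5c allele. The comparisons ask how the fractions differ and whether the genotype labels differ within each fraction.

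Wnt proteins are secreted lipid-modified ligands that bind frizzled receptors. With LRP5 or LRP6 as co-receptor they stabilise beta-catenin, which acts with TCF/LEF factors in the nucleus, and with ROR receptors they signal without beta-catenin. In adipose tissue, Wnt/beta-catenin signalling is best known for holding progenitors back from adipocyte differentiation, and Wnt10b is its classical ligand there.

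Depth ran from 21836878 to 29434125 reads per library, and 3 reads corresponded to 0.102 to 0.137 CPM (counts scaled to a library total of 1000000). The fractions matched their names: all 12 adipocyte markers were higher in mature adipocytes and all 12 progenitor markers and 10 endothelial markers were higher in the stromal vascular fraction. The level of Kdm5c itself did not separate the labels. It was 158, 190.3 and 158 CPM in mature adipocytes labelled Kdm5c+/– against 179, 174 and 180.0 in wild type, and 194, 190.4 and 175 against 188, 185 and 180.1 in the stromal vascular fraction. The log2 differences were -0.08 ± 0.10 (SE, limma adjusted p = 0.717) and 0.01 ± 0.07 (limma adjusted p = 0.978). The sources used here do not state which exons are altered, so the total over the gene may not test the label, and the genotype groups are named below by their labels.

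The sequences just upstream of the start sites are shown for the 4 genes that had an unadjusted p under 0.05 between the genotype labels in one of the fractions and an entry in the RefSeq promoter table (GRCm38.p6). Each run is 250 bases, 5′ to 3′, on the strand of the gene, which is the plus strand for all 4. The windows are chr11:108920099-108920348 for Axin2, chr7:89404116-89404365 for Fzd4, chr3:132085042-132085291 for Dkk2 and chr7:98834862-98835111 for Wnt11. Capitals mark the TCF/LEF core motif, CTTTGA or its reverse complement TCAAAG.
Axin2: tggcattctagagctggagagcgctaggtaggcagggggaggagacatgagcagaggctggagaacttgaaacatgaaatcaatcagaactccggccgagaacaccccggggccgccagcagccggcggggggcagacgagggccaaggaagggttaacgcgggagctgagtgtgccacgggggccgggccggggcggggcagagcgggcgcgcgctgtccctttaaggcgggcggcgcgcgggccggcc
Fzd4: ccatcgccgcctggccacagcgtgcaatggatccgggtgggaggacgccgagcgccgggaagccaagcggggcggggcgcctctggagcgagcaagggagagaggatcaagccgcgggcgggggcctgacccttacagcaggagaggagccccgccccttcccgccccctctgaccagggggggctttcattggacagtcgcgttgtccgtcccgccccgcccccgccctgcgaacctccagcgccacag
Dkk2: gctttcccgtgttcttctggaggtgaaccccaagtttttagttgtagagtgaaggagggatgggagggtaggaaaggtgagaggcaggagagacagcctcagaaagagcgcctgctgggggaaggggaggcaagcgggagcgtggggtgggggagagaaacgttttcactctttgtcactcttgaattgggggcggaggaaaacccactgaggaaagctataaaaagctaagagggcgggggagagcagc
Wnt11: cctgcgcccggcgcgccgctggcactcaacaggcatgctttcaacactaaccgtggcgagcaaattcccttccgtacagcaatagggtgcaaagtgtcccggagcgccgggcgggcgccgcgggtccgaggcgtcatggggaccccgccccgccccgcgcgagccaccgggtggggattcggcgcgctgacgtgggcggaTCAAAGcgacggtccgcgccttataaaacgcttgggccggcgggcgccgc

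Of these 4 windows, that of Wnt11 alone held the core, 50 bases upstream of the annotated start. Wnt11 has another annotated start in the table, whose window did not hold it. Of the 47 genes, 31 had a promoter in the table, with 35 windows in all. Of these windows 5 (14.3%) held the core on either strand, 1 each of Frzb, Fzd1, Ror1, Wnt11 and Wnt5b, against 13.8% of all 32851 windows of that length in the table. A match of these letters is a description of the sequence and not evidence of binding. Axin2, a textbook beta-catenin target, had none in this window.

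The levels of the 47 genes spanned the range from no reads to 891 CPM. Of these, 20 reached 1 CPM in at least 3 libraries of each fraction, 19 did so in the stromal vascular fraction alone, none did so in mature adipocytes alone, and 8 in neither. Per kilobase of exon, which allows levels to be compared between genes, Fzd4 ranked first in both fractions, at 93.8 CPM per kb in mature adipocytes and 40.3 in the other fraction. Fzd4 is a receptor for Wnt ligands and for norrin. In mature adipocytes it was followed by Sfrp5 (42.4), Lrp5 (17.2), Lrp6 (14.8), Lgr4 (10.9) and Fzd1 (10.6). In the stromal vascular fraction it was followed by Sfrp2 (38.4), Lrp5 (37.1), Fzd1 (30.7), Lrp6 (21.04) and Axin1 (16.7).

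**Figure D1:**
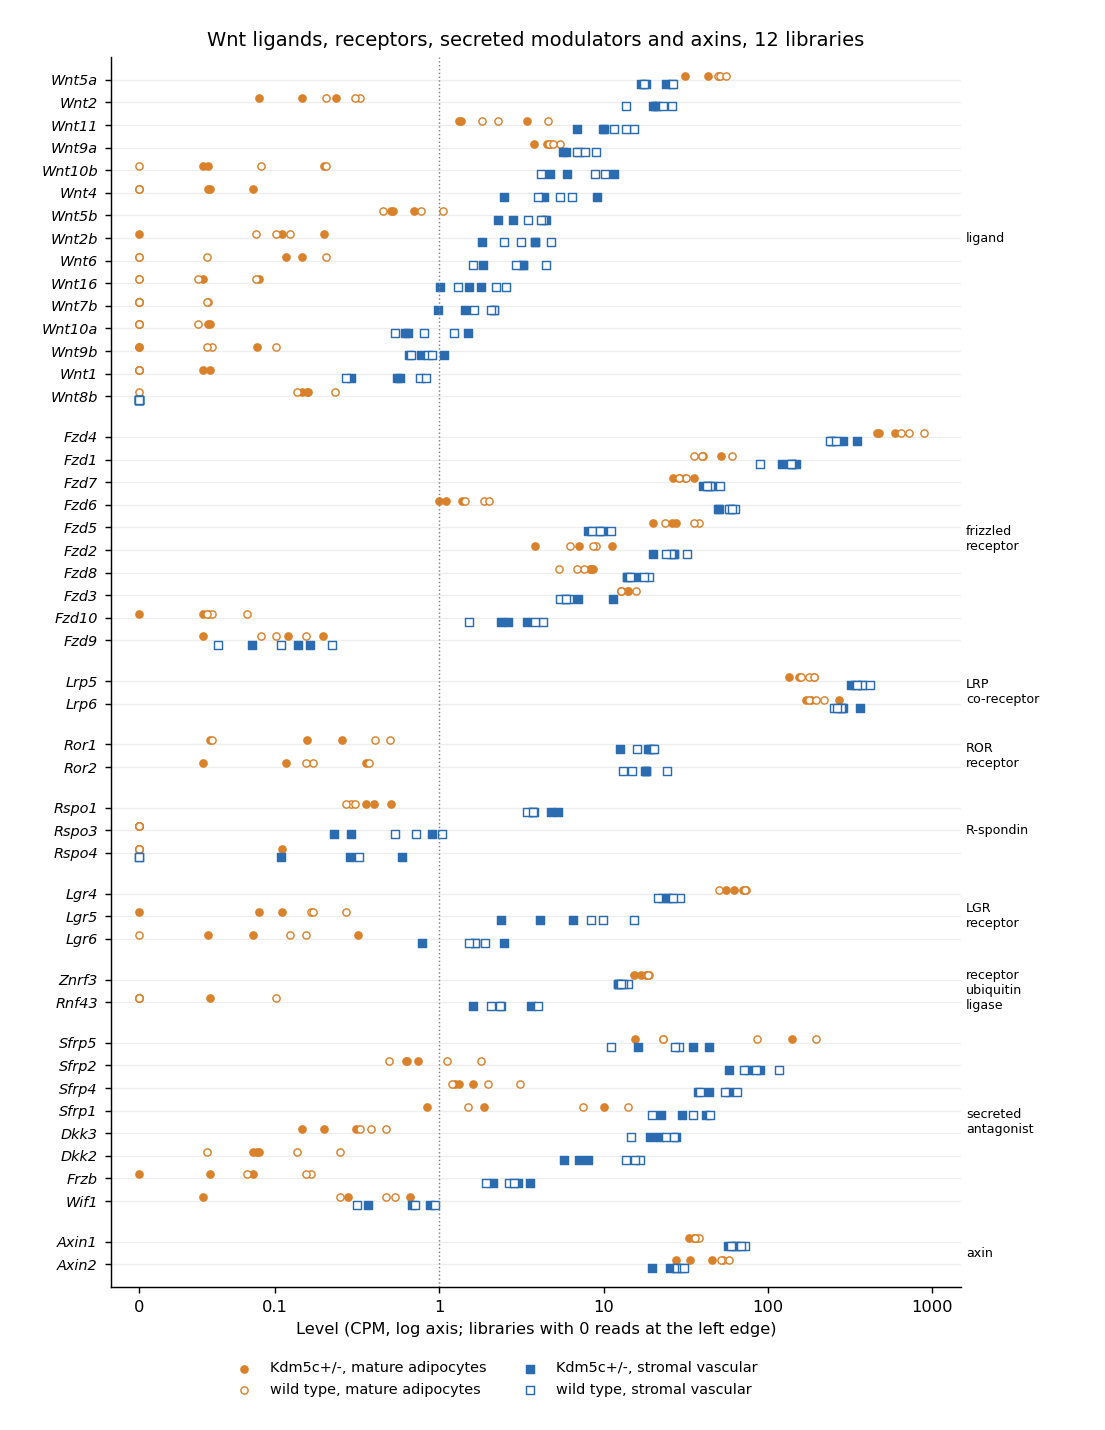
Level of each of the 47 genes in CPM (log axis) in every library, grouped by role, with mature adipocyte libraries as circles and stromal vascular libraries as squares, filled for Kdm5c+/– and open for wild type; libraries with 0 reads stand at the left edge and the dotted line marks 1 CPM. The receptors and co-receptors Fzd4, Lrp5 and Lrp6 are high in both fractions, while most ligands lie below 1 CPM in mature adipocytes.

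Between the fractions, 1 ligand (Wnt5a), 3 frizzled receptors (Fzd3, Fzd4 and Fzd5), Lgr4, Znrf3 and Axin2 were higher in mature adipocytes, and most other members were higher in the stromal vascular fraction. Of the 39 genes that passed the filter, 7 were higher in mature adipocytes (17.9%) and 31 lower (79.5%), against 28.7% and 59.1% of all 14193 genes tested (limma, adjusted p under 0.05). The median log2 difference was -1.68 over the 39 genes and -0.45 over all genes. Since 19 of the 39 entered the test only through their stromal vascular level, they had to differ, and the 20 genes at 1 CPM in both fractions are the fairer count. Among these 20, 7 were higher in mature adipocytes, 12 were lower and 1 did not pass. Among all 11526 genes that met the same condition, 32.1% were higher and 53.3% lower. Fewer cells of a type and less RNA per cell cannot be told apart in these bulk libraries.

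Wnt5a, a ligand that mainly signals without beta-catenin, was the exception among the ligands. It was present at 42.9, 31.1 and 50.2 CPM in Kdm5c+/– and 49.9, 51.0 and 55.2 in wild-type mature adipocytes. In the stromal vascular fraction it stood at 18.1, 16.8 and 23.9 CPM in Kdm5c+/– and 26.2, 17.5 and 26.4 in wild type. Every mature adipocyte library lay above every stromal vascular library. The log2 difference was 1.09 ± 0.14 (limma adjusted p = 1.4e-05). Per kilobase, Wnt5a made up 70.4% of the summed ligand level in mature adipocytes, followed by Wnt9a with 16.5% and Wnt11 with 7.02%.

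In the stromal vascular fraction the ligands were more evenly spread, with a summed level of 25.2 CPM per kb against 8.48 in mature adipocytes. Wnt2, which signals through beta-catenin, made up 36.5% of it, followed by Wnt5a (10.9%), Wnt11 (10.7%), Wnt10b (8.82%) and Wnt9a (8.37%). Wnt2 ranged from 13.6 to 25.9 CPM in the stromal vascular libraries, with a median of 20.9, and from 0.0801 to 0.331 CPM in mature adipocytes, with a median of 0.219. The groups were far apart: over the 6 libraries of each fraction, Wnt2 had 34 reads in mature adipocytes against 3047 in stromal vascular libraries. The log2 difference was -4.14 ± 0.13. Wnt2 entered the test only through its stromal vascular level, so it had to differ.

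The other 9 ligands that passed were also higher in the stromal vascular fraction, Wnt9a not under every scaling. Of all genes tested, 59.1% were higher there. Of the 9, only Wnt9a and Wnt11 reached 1 CPM in at least 3 libraries of each fraction. The rest, like Wnt2, entered the test only through the stromal vascular fraction, so their direction was set in advance. Including Wnt2, 7 of these ligands were present in mature adipocytes at 0.481% to 3.10% of their stromal vascular level, and Wnt5b at 18.7%. The anti-adipogenic ligand Wnt10b had a log2 difference of -2.89 and ranged from 4.13 to 11.5 CPM in the stromal vascular libraries. Wnt4, with a known role in mammary branching, ranged from 2.47 to 9.11 CPM there and had 4 reads over all mature adipocyte libraries. Both had their highest stromal vascular value in Kdm5c+/– library 2. The summed level of the 10 mammary epithelium markers was highest in the same library, at 382 CPM, against 97.2 to 294 CPM in the other 5. So were the sums of adipocyte (9641 CPM), macrophage (2968), Schwann cell (897) and skeletal muscle markers (10.5). Those of progenitor, endothelial, pericyte and smooth muscle, and lymphocyte markers were not. The next highest library was wild type 1 for Wnt10b (10.2 CPM) and wild type 3 for Wnt4 (6.40 CPM), with mammary sums of 160 and 294 CPM. The part of these cells in these 2 ligands was not tested. Wnt11, Wnt2b, Wnt5b, Wnt6, Wnt7b, Wnt9a and Wnt16 made up the rest. Of these, Wnt9a had the smallest difference, -0.50 ± 0.09 (limma adjusted p = 0.000272), which lost its call under median-of-ratios scaling, edgeR and DESeq2 and turned to 0.58 under quantile normalization. Wnt5b, at -1.44, did not pass under quantile normalization (-0.15).

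The frizzled receptors fell on both sides. Fzd5 was 20.1, 26.2 and 27.6 CPM in Kdm5c+/– and 23.6, 37.8 and 35.7 in wild-type mature adipocytes, against 8.07 to 11.045 CPM, with a median of 9.35, in the stromal vascular libraries. Its log2 difference, 1.48 ± 0.13 (limma adjusted p = 2.85e-07), was the highest of the 39 genes. Fzd4 ranged from 460.4 to 891 CPM in mature adipocytes, with a median of 618, and from 239 to 347 CPM (median 254) in the stromal vascular fraction, and the ranges did not overlap. The log2 difference was 1.19 ± 0.11 (limma adjusted p = 4.03e-07). Fzd3, known for its role in axon guidance and cell polarity, ranged from 12.7 to 15.7 CPM in mature adipocytes (median 13.4) and from 5.46 to 11.4 CPM in the stromal vascular fraction (median 6.04), a log2 difference of 0.92 ± 0.13 (limma adjusted p = 2.79e-05).

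Fzd6, a receptor of planar cell polarity signalling, showed the opposite. It had 1.00 to 2.01 CPM in mature adipocytes, with a median of 1.40, and 49.4 to 63.0 CPM (median 58.5) in the stromal vascular fraction. Its log2 difference was -4.56 ± 0.08 (limma adjusted p = 1.58e-12), and no mature adipocyte library came near the stromal vascular range. Fzd1, Fzd2, Fzd8 and Fzd10 were likewise higher in the stromal vascular fraction, by -1.52, -1.68, -0.98 and -1.91 on the log2 scale (limma, all past the threshold). Of these, Fzd10 entered the test only through that fraction. Fzd1 ranged from 35.3 to 60.3 CPM in mature adipocytes (median 40.1) and from 89.3 to 148 CPM in the stromal vascular libraries (median 137). Fzd7 differed by -0.54 ± 0.08 (limma adjusted p = 3.12e-05), which did not pass under any of the 4 other scalings or tools (-0.07 with edgeR).

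The co-receptors were abundant in both fractions. Lrp5 ranged from 135 to 190 CPM in mature adipocytes, with a median of 169, and from 319 to 417 CPM (median 360.3) in the stromal vascular fraction. The log2 difference of -1.11 ± 0.09 (limma adjusted p = 1.65e-07) came with no overlap between the fractions. Lrp6 ranged from 170.0 to 271 CPM (median 189) and from 254 to 361 CPM (median 281), and these ranges overlapped. Its log2 difference of -0.51 ± 0.12 passed in limma (adjusted p = 0.00125) but not under median-of-ratios scaling (-0.12), edgeR (-0.03) or DESeq2 (-0.11).

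Ror1 and Ror2, receptors for Wnt5a, were low in the fraction in which Wnt5a was higher. Ror1 ranged from 12.6 to 20.3 CPM in the stromal vascular libraries (median 18.8) and from 0.0400 to 0.502 CPM in mature adipocytes (median 0.207). Ror2 ranged from 13.2 to 24.4 CPM (median 17.9) and from 0.0367 to 0.372 CPM (median 0.162). The log2 differences were -3.92 and -3.95, and each gene had 38 or fewer reads over all 6 mature adipocyte libraries. Both entered the test only through their stromal vascular level, so they had to differ.

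The R-spondin module, which amplifies Wnt signals by clearing the ubiquitin ligases ZNRF3 and RNF43 from the membrane, was split between the fractions as well. Lgr4, one of its receptors, ranged from 50.4 to 73.5 CPM in mature adipocytes (median 66.2) and from 21.5 to 29.2 CPM in the stromal vascular fraction (median 25.0). The fractions did not overlap, and the log2 difference was 1.32 ± 0.11 (limma adjusted p = 2.01e-07). Lgr5 and Lgr6, known as stem cell markers of several epithelia, were higher in the stromal vascular fraction, by -2.78 and -1.23 on the log2 scale. The ligases were opposite too: Znrf3 was higher in mature adipocytes (15.3 to 19.0 against 12.2 to 14.1 CPM, log2 difference 0.44 ± 0.06, limma adjusted p = 1.67e-05), and Rnf43 was higher in the stromal vascular fraction (-1.80), with 4 reads over all mature adipocyte libraries. Among the ligands of this module, Rspo1 was higher in the stromal vascular fraction (-1.90). Rspo3 had 0 reads in every mature adipocyte library and 90 in all over the stromal vascular libraries, and Rspo4 stayed under the filter. Lgr5, Lgr6, Rnf43 and Rspo1 entered the test only through the stromal vascular fraction, so their direction was set in advance.

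Among the secreted antagonists, 6 of the 7 tested were higher in the stromal vascular fraction, against 59.1% of all genes tested. Of the 6, Sfrp2, Dkk2, Dkk3 and Frzb entered the test only through that fraction, so their direction was set in advance. Sfrp1, Sfrp4 and Sfrp5 met the 1 CPM condition in both fractions, and 53.3% of all genes that did so were lower in mature adipocytes. Sfrp2, a frizzled-related protein that binds Wnt ligands, ranged from 58.2 to 116 CPM in the stromal vascular fraction (median 80.4). In mature adipocytes it ranged from 0.496 to 1.80 CPM (median 0.692). Sfrp4, of the same family, ranged from 37.6 to 64.9 CPM (median 49.3) and from 1.199 to 3.09 CPM (median 1.46). Dkk3, a divergent Dickkopf protein, ranged from 14.7 to 27.5 CPM (median 22.8) and from 0.147 to 0.476 CPM (median 0.322). Sfrp2, Sfrp4 and Dkk3 did not overlap between fractions. Their log2 differences were -5.46 ± 0.17, -4.21 ± 0.17 and -4.13 ± 0.14, with a limma adjusted p of 4.78e-10 for Sfrp4.

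Dkk2, a Dickkopf protein that binds LRP5 and LRP6, ranged from 5.77 to 16.7 CPM in the stromal vascular libraries and had 1 to 6 reads in each mature adipocyte library. Its log2 difference was -3.36 ± 0.10, and it too entered the test only through the stromal vascular fraction. Sfrp1 differed by -2.63 ± 0.50 and Frzb by -1.75 ± 0.11 (limma adjusted p = 0.000385 for Sfrp1). Sfrp5 was the one antagonist with a higher mean in mature adipocytes, and its libraries spread so widely that it did not pass (1.06 ± 0.61, limma adjusted p = 0.122). Sfrp5 passed under median-of-ratios scaling, quantile normalization, edgeR and DESeq2 (2.02, adjusted p = 0.0102 with edgeR) and without wild-type mature adipocyte library 1 (1.47, limma adjusted p = 0.0300).

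The axins, scaffolds of the complex that degrades beta-catenin, also parted. Axin2, whose gene is itself a beta-catenin target, was 33.5, 27.5 and 45.7 CPM in Kdm5c+/– and 53.5, 51.8 and 58.2 in wild-type mature adipocytes. In the stromal vascular fraction it was 27.7, 25.2 and 19.7 CPM in Kdm5c+/– and 27.9, 30.0 and 30.7 in wild type. The log2 difference was 0.69 ± 0.12 (limma adjusted p = 0.000133), although the lowest mature adipocyte library, Kdm5c+/– 2, lay within the stromal vascular range. Axin1 was lower in mature adipocytes, at 32.9 to 38.1 CPM (median 35.8) against 56.7 to 72.1 CPM (median 63.7), a log2 difference of -0.82 ± 0.06 (limma adjusted p = 5.6e-08).

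**Figure D2:**
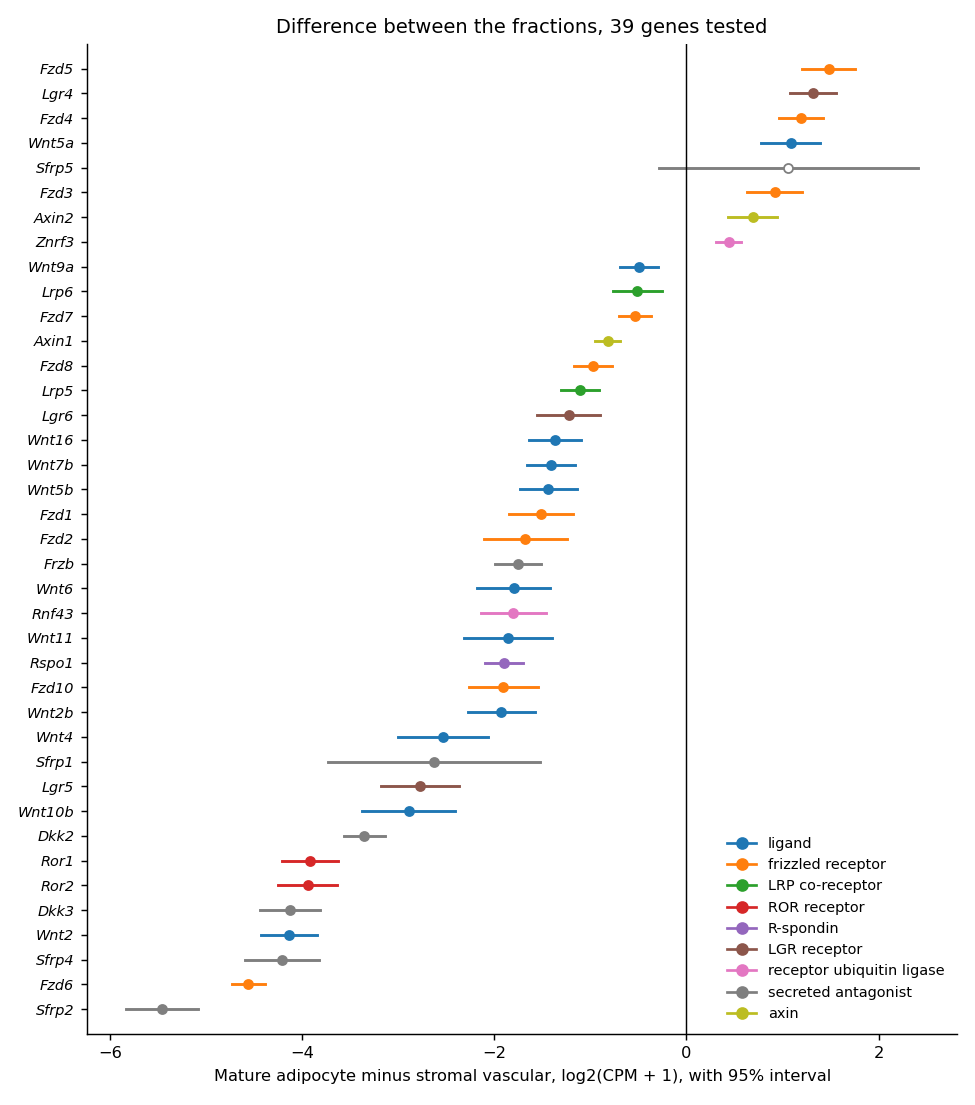
Log2 difference in level between mature adipocytes and the stromal vascular fraction, on the log2(CPM + 1) scale with its 95% interval, for the 39 genes tested, coloured by role; filled points pass the threshold. The 7 genes from Znrf3 (0.44) to Fzd5 (1.48) lie to the right, Sfrp5 is open, and Sfrp2 (-5.46) is farthest left; Wnt9a (-0.50) turned to 0.58 under quantile normalization.

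Over all genes, levels were shifted towards the stromal vascular fraction in CPM, and the median over all genes moved by 0.36 with median-of-ratios scaling or DESeq2, 0.44 with edgeR and 0.54 with quantile normalization. Relative to the median of all genes, Znrf3 differed by 0.89, Fzd5 by 1.93 and Sfrp2 by -5.01, while Lrp6 (-0.07), Fzd7 (-0.09) and Wnt9a (-0.05) lay at that median. Of the 20 genes at 1 CPM in both fractions, 17 (85%) did not overlap between fractions, against 70.5% of all genes under the same condition, and the 3 that overlapped were Lrp6, Axin2 and Sfrp5. The 19 genes that passed only through the stromal vascular fraction stood in mature adipocytes at 0.481% to 18.7% of their stromal vascular level, with a median of 1.32%. For the 12 progenitor markers this share was 0.995% to 22.2% with a median of 1.25%, and for the 10 endothelial markers its median was 3.12%. The part of stromal RNA in the mature adipocyte levels of these 19 genes was not tested. In the other direction, the 12 adipocyte markers stood in the stromal vascular fraction at a median of 2.66% of their mature adipocyte level, while the 7 genes higher in mature adipocytes stood there at 32.9% to 72.2%.

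The 8 genes below the filter were Wnt1, Wnt8b, Wnt9b, Wnt10a, Rspo3, Rspo4, Fzd9 and Wif1. Wnt8b was the only one of the 47 with no read in any stromal vascular library, and it had 22 reads over the 6 mature adipocyte libraries, up to 0.232 CPM. Fzd9 had 18 reads in each fraction. At this depth such levels do not support a comparison.

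The other genes of the pathway, listed by their textbook role, are to be read against the shares of all genes given above, 28.7% higher and 59.1% lower in mature adipocytes. Of 22 tested genes for Wnt production and membrane partners, 8 were higher in mature adipocytes and 12 lower. The 4 with the smallest p were Gpc6, a glypican (-5.84), Prickle2, a planar polarity protein (-3.96), Reck and Ptk7. Reck, a co-factor of Wnt7 reception, differed by -4.32 and Ptk7, a Wnt co-receptor, by -4.17. Ptk7, like Kremen2, Sostdc1, Vangl2 and Celsr1 of this list, entered the test only through the stromal vascular fraction. Lypd6 entered only through mature adipocytes. The direction of these genes was set in advance. Of 34 genes of the beta-catenin cascade, 6 were higher in mature adipocytes and 25 lower, among the latter Daam2 (-5.05), the co-repressors Tle2 (-3.08) and Tle4 (-1.86), and Ctnnb1, which encodes beta-catenin (-1.595). Ctnnb1 was measured at a mean of 282 CPM in mature adipocytes and 858 CPM in the stromal vascular fraction. Of 15 textbook target and feedback genes, 3 were higher in mature adipocytes and 11 lower, and their median log2 difference was -2.16. They included the cell cycle gene Ccnd1 (-4.88), Id2 (-4.21) and the TGF-beta pseudoreceptor Bambi (-2.16). Of the 15, Nkd2, Wisp1, Tnfrsf19, Tcf7 and Lef1 entered the test only through the stromal vascular fraction, so their direction was set in advance. Tcf7 and Lef1 are also on the cascade list. Apcdd1, a membrane inhibitor of Wnt signalling that is also a target, was higher in mature adipocytes by 3.70 and went with Axin2 in that direction. Nkd1 (0.84) and Myc (0.91) were higher there as well.

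Between the genotype labels in mature adipocytes, no gene of the 20 tested passed the threshold. Axin2 and Fzd4 had the smallest p, and both were lower in every Kdm5c+/– library than in any wild-type library. In limma 0 of all 11913 genes passed (0%), with 1737 (14.6%) at an unadjusted p under 0.05, 2 of the 20 (10%) among them. With edgeR 0 genes passed, with 1755 at an unadjusted p under 0.05, and with DESeq2 250 passed. Of the 20 estimates 17 (85%) were below 0, against 56.9% of all genes, and their median was -0.17 against -0.03. These figures moved with single libraries. The 1737 became 950 without Kdm5c+/– library 1, 2667 without Kdm5c+/– 3, 991 without wild type 2 and 1119 without wild type 3. The 2 became 4 without Kdm5c+/– 3, wild type 1 or wild type 2, and the median over the 20 became -0.34, -0.27 and -0.11 without these. Without Kdm5c+/– 3, 3 genes passed after adjustment (limma), 0 of the 20 among them.

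Axin2, with the libraries given above, had means of 35.5 CPM in Kdm5c+/– and 54.5 CPM in wild-type mature adipocytes. The groups did not overlap, and the log2 difference was -0.63 ± 0.18 (limma adjusted p = 0.285, and 0.058 to 0.612 under the alternatives). Fzd4 was 460.4, 471 and 589 CPM in Kdm5c+/– and 647, 891 and 724 CPM in wild type, again with no overlap. Its log2 difference was -0.57 ± 0.16 (limma adjusted p = 0.285), and it passed in DESeq2 (-0.53, adjusted p = 0.0345). Across all alternatives its adjusted p ran from 0.0345 to 0.612.

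The next 3 by p differed less. Fzd8 was 8.59, 8.37 and 8.31 CPM in Kdm5c+/– and 5.37, 7.61 and 6.91 CPM in wild type, a log2 difference of 0.31 ± 0.14 (limma adjusted p = 0.349). Fzd6 was 1.10, 1.00 and 1.37 CPM against 1.86, 1.43 and 2.01 CPM, a difference of -0.36 ± 0.16 (limma adjusted p = 0.349). Neither overlapped between the labels, Fzd8 being higher and Fzd6 lower with the Kdm5c+/– label. Wnt5a differed by -0.35 ± 0.17 (limma adjusted p = 0.374), with overlap. In all 6 of the 20 genes (30%) did not overlap, against 22% of all genes, and the others were Znrf3 and Axin1, both lower with the Kdm5c+/– label.

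Markers of other cells moved in the same comparison. The summed level of the 10 endothelial markers was 128 to 236 CPM in Kdm5c+/– and 292 to 371 CPM in wild-type mature adipocytes, all 10 estimates were below 0, and none of these markers was at 0 in any library. The 12 progenitor markers summed to 1274 to 2523 CPM against 2213 to 2633 CPM, most of it Col1a1 and Col3a1. All 12 estimates were below 0, with a median of -0.38. The 9 pericyte and smooth muscle markers summed to 213 to 389 CPM against 362 to 603 CPM, with 8 estimates below 0. The other, Cspg4 (0.60), was a large part of that sum, at 132 to 224 CPM against 67.9 to 138 CPM. The adipocyte markers summed to 78571 to 89849 CPM against 67423 to 70623 CPM. The part of these cells in the differences of Axin2, Fzd4 and Fzd6 was not tested. Fzd4 itself stood in mature adipocytes at 233% of its stromal vascular level and Axin2 at 168%, the endothelial markers at a median of 3.12% and Fzd6 at 2.58%.

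Sfrp5 and Sfrp1 varied far more among the mature adipocyte libraries than the other 18 genes, with coefficients of variation of 92.5% and 91.1%, against at most 52.5% for Wnt11. Sfrp5, which binds Wnt5a and is known as an adipocyte-secreted factor, was 23.1, 15.4 and 140.6 CPM in Kdm5c+/– and 22.9, 196 and 85.9 CPM in wild type. Sfrp1 was 1.87, 0.841 and 10.1 CPM in Kdm5c+/– and 1.49, 14.1 and 7.45 CPM in wild type. Both genes put the 6 libraries in the same order, with Kdm5c+/– 3, wild type 2 and wild type 3 high, so that high and low libraries occurred under both labels. The log2 differences between the labels were -0.96 ± 1.01 and -0.81 ± 0.85, with 95% intervals from -3.35 to 1.44 and from -2.83 to 1.21. The same 3 libraries were the highest for 9 of the 20 genes (45%) and for 13.2% of all genes, a pattern chosen after the values were seen. The other 7 were Lrp5, Wnt5a, Fzd5, Fzd2, Wnt9a, Sfrp4 and Wnt11. Summed markers of 4 other cell types were highest in these libraries too. Progenitor markers summed to 2438 to 2633 CPM against 1274 to 2213 CPM in the other 3, and pericyte and smooth muscle markers to 389 to 603 against 213 to 362. Schwann cell markers summed to 94.9 to 120.3 against 70.2 to 90.4, and macrophage markers to 38.6 to 105 against 35.2 to 36.4. The endothelial, lymphocyte, mammary epithelium, skeletal muscle and adipocyte sums did not have these 3 libraries highest. Endothelial markers were highest in wild type 1, at 371 CPM, against 236 CPM in Kdm5c+/– 3. By gene, the same 3 libraries were the highest for 3 of 12 progenitor and 3 of 9 pericyte and smooth muscle markers tested. For Schwann cells and macrophages these were 3 of 5 and 2 of 7. Among these markers were Col1a1, Acta2 and S100b. Of the adipocyte markers 2 of 12 did so, Plin1 and Lep. The part of these cells in the levels of the 9 genes was not tested.

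**Figure D3:**
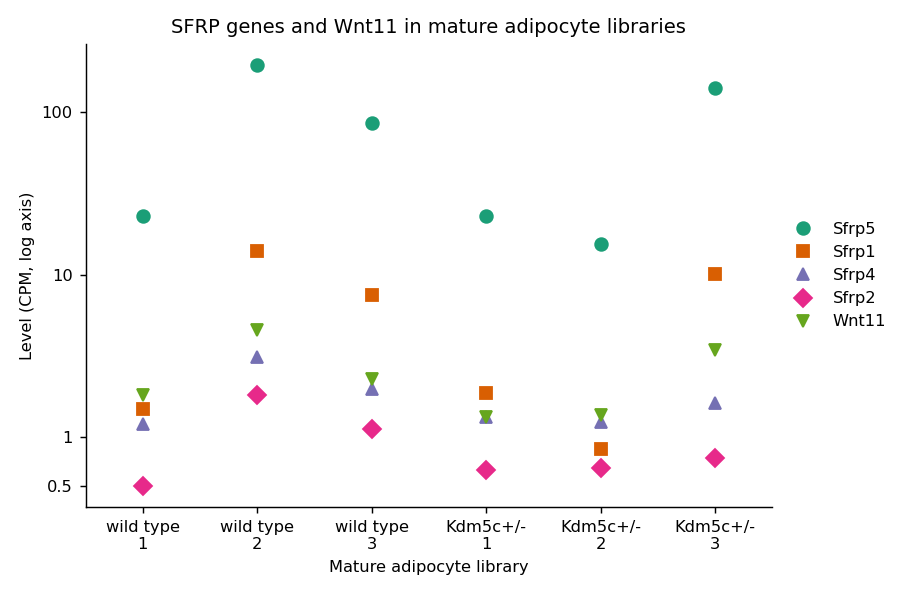
Level of 4 frizzled-related genes and Wnt11 in CPM (log axis) in each of the 6 mature adipocyte libraries. Wild type 2, wild type 3 and Kdm5c+/– 3 are the 3 highest for all 5 genes, from 85.9 to 196 CPM for Sfrp5, against 15.4 to 23.1 CPM in the other 3.

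Between the genotype labels in the stromal vascular fraction, no gene of the 39 tested passed in limma, and Dkk2 had the smallest p. Its mean was 6.98 ± 1.15 CPM (SD, n = 3) with the Kdm5c+/– label and 15.3 ± 1.58 CPM (SD, n = 3) in wild type. In limma 1 of all 13792 genes passed (0.00725%), with 1043 (7.56%) at an unadjusted p under 0.05, 3 of the 39 (7.69%) among them. With edgeR 1 gene passed, with 943 at an unadjusted p under 0.05, and with DESeq2 53 passed. Of the 39 estimates 29 (74.4%) were below 0, against 59.4% of all genes, with medians of -0.11 and -0.03. The 1043 became 688 without wild-type library 1 and 489 without wild type 2, but 1496 without Kdm5c+/– 3 and 1459 without wild type 3. The 3 became 6 without Kdm5c+/– 1 or Kdm5c+/– 3 and 5 without wild type 3, the median over the 39 became -0.04 without Kdm5c+/– 3, and 0 genes passed after adjustment when any 1 library was left out.

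Dkk2 was 7.12, 5.77 and 8.06 CPM in Kdm5c+/– (195, 126 and 196 reads) and 13.6, 16.7 and 15.4 CPM in wild type (304, 373 and 424 reads). The 2 groups did not overlap, and the mean with the Kdm5c+/– label was 0.458 times that of wild type. The log2 difference was -1.03 ± 0.14, with a 95% interval from -1.36 to -0.70 (limma adjusted p = 0.316). Whether it passed depended on the tool: the adjusted p was 0.551 with edgeR, 4.58e-05 with DESeq2 and 0.0324 with limma fitted to all 12 libraries, and leaving out 1 library gave 0.168 to 1. The difference itself lay between -1.13 and -0.92 in all of the alternatives run. The 12 progenitor markers summed to 25078 to 38653 CPM with the Kdm5c+/– label and 20020 to 28999 CPM in wild type, and were at 0 in no library. Of their estimates 9 were above 0 and 3 below, with a median of 0.09, and 1 had an unadjusted p under 0.05 (limma). The collagen gene Col3a1 was the largest part of the sum, at 13067 to 23398 CPM against 8990 to 14348 CPM. Dcn ran the other way, at 2857 to 3890 CPM against 3725 to 4687 CPM. The 10 endothelial markers summed to 6678 to 8721 CPM against 8490 to 9172 CPM, and the pericyte and smooth muscle markers to 3769 to 4155 CPM against 4106 to 5203 CPM. All 7 macrophage markers tested had estimates above 0, 3 of them at an unadjusted p under 0.05, and the list summed to 2051 to 2968 CPM against 2034 to 2144 CPM. Adipocyte markers were above 0 for 10 of 12 (median 0.60; 5100.4 to 9641 CPM against 5707 to 6189 CPM) and Schwann cell markers for 6 of 6 (359 to 897 CPM against 360.0 to 504 CPM). The part of the cell mixture in the Dkk2 difference was not tested.

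Lgr5, the R-spondin receptor, was 6.50, 4.12 and 2.38 CPM in Kdm5c+/– and 9.89, 8.35 and 15.3 CPM in wild type. The labels did not overlap, but both groups were spread, and the log2 difference was -1.22 ± 0.33 (limma adjusted p = 0.617). Wnt11, a ligand of cell polarity signalling, was 6.86, 10.1 and 9.90 CPM against 15.3, 11.6 and 13.6 CPM, a difference of -0.55 ± 0.17 (limma adjusted p = 0.617). Axin2 was 27.7, 25.2 and 19.7 CPM against 27.9, 30.0 and 30.7 CPM, a difference of -0.29 ± 0.13 (limma adjusted p = 0.644). The labels did not overlap, but the nearest libraries, at 27.7 and 27.9 CPM, almost met. The Kdm5c+/– libraries were lower as in mature adipocytes, which came from the same pools and are no separate observation. Fzd6 was 58.9, 50.3 and 49.4 CPM against 58.1, 63.0 and 60.7 CPM, a difference of -0.20 ± 0.09 (limma adjusted p = 0.650), with overlap.

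Wnt2, the leading ligand of this fraction by level, was 20.0, 21.1 and 20.7 CPM in Kdm5c+/– and 23.1, 13.6 and 25.9 CPM in wild type. The wild-type libraries lay on both sides of the Kdm5c+/– libraries, and the log2 difference was 0.03 ± 0.22, with a 95% interval from -0.49 to 0.54 (limma adjusted p = 0.987). Its sign rested on wild-type library 2, without which it was -0.24. In all, 6 of the 39 genes (15.4%) did not overlap between the labels, against 13.5% of all genes. Besides Dkk2, Lgr5, Wnt11 and Axin2 they were Znrf3, which was lower, and Lrp6, which was higher with the Kdm5c+/– label.

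**Figure D4:**
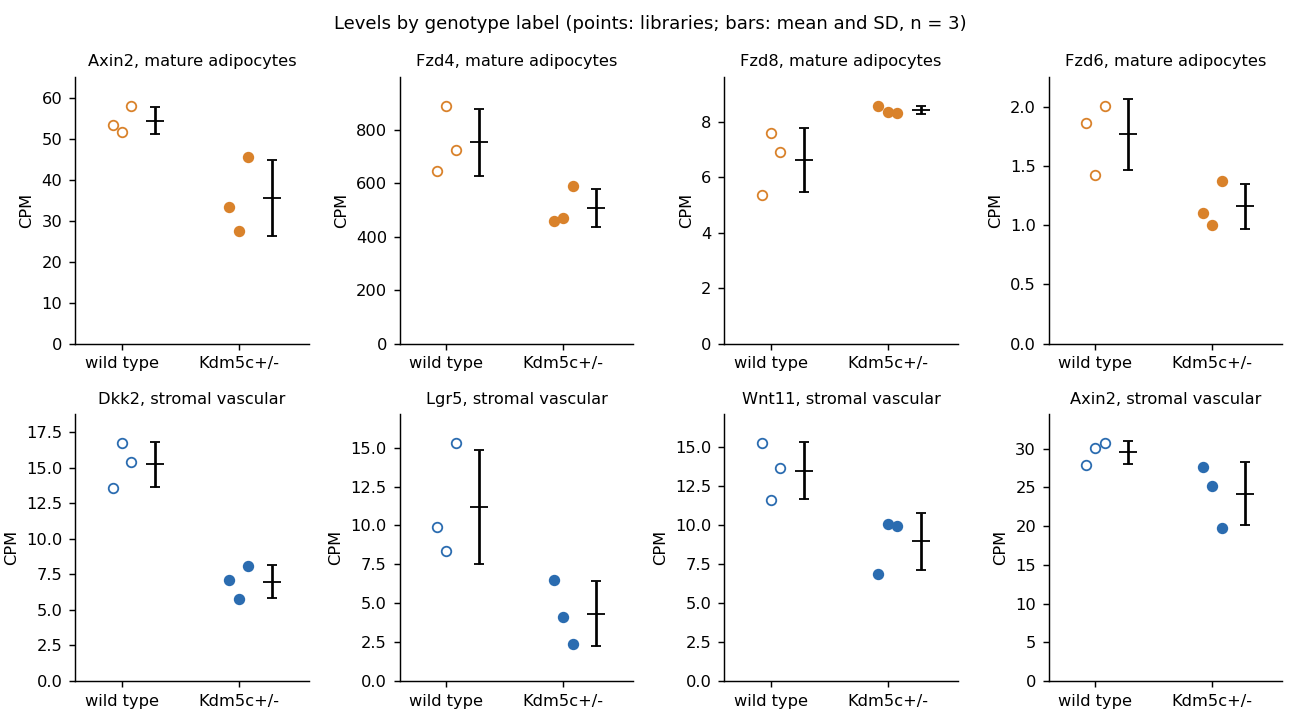
Level in CPM in each library by genotype label for 4 genes in mature adipocytes (top) and 4 in the stromal vascular fraction (bottom), with the mean and SD of 3 libraries as bars. None of these 8 comparisons overlaps, Dkk2 lies between 5.77 and 8.06 CPM with the Kdm5c+/– label and between 13.6 and 16.7 CPM in wild type, and none passed after adjustment in limma fitted to the 6 libraries of a fraction.

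**Figure D5:**
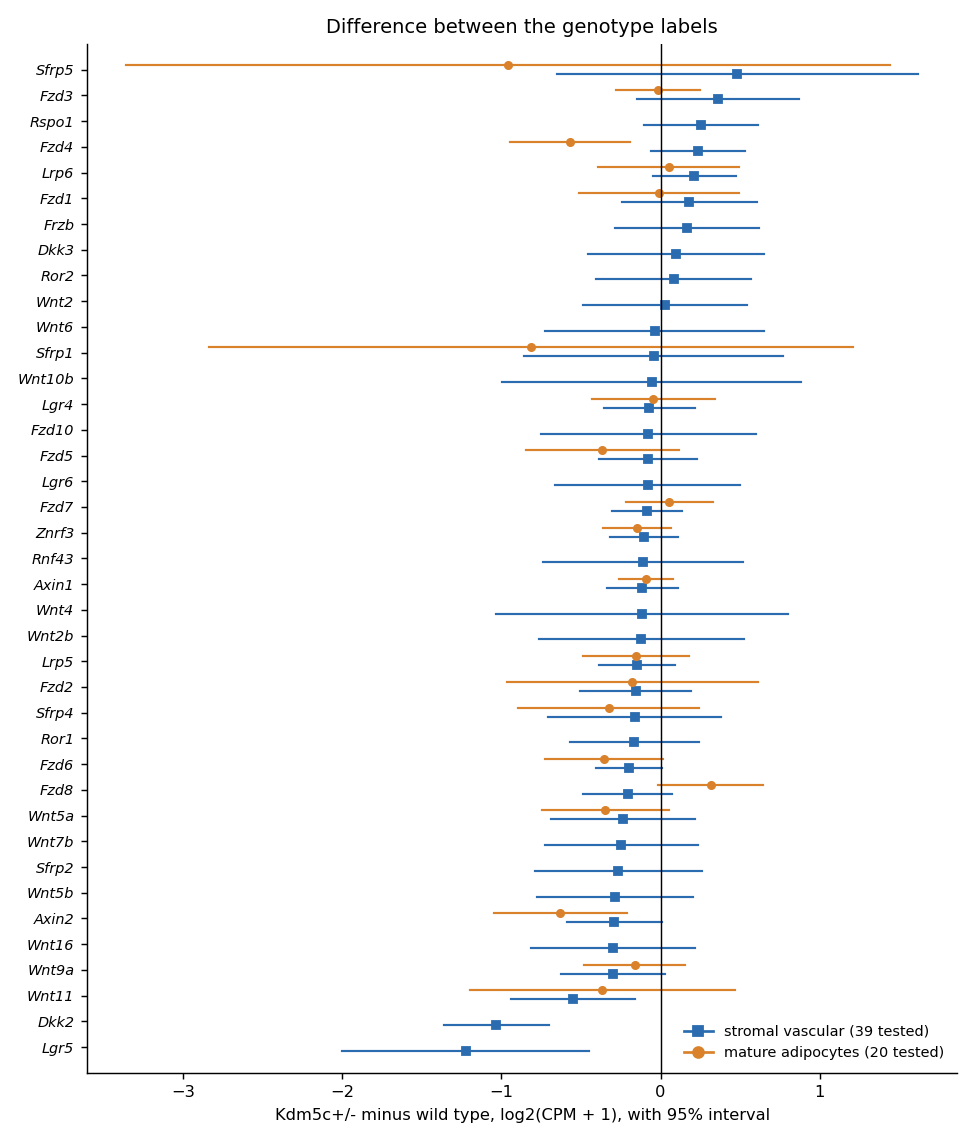
Log2 difference between Kdm5c+/– and wild-type libraries, on the log2(CPM + 1) scale with its 95% interval, for the 39 genes tested in the stromal vascular fraction (squares) and the 20 tested in mature adipocytes (circles). Most estimates lie left of 0 (29 of 39 and 17 of 20), and the Sfrp5 and Sfrp1 intervals in mature adipocytes are the widest.

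The 3 lists of other pathway genes gave 0 genes past the threshold between the labels in either fraction (limma). For membrane partners, cascade and targets, 1 of 17, 8 of 32 and 1 of 10 had an unadjusted p under 0.05 in mature adipocytes, against 14.6% of all genes. For stromal vascular cells these were 1 of 21, 7 of 34 and 2 of 15, against 7.56% of all genes. The genes with the smallest p in mature adipocytes were the beta-catenin destruction complex members Amer1 (-0.58 ± 0.12) and Apc (-0.38 ± 0.09), both with a limma adjusted p of 0.273. Amer1 passed in DESeq2 (-0.54, adjusted p = 0.0111). Ccnd1 differed by -0.83 ± 0.24 there and by -0.40 ± 0.11 in the stromal vascular fraction, and its libraries did not overlap between the labels in either: 2.94, 1.601 and 3.37 CPM against 6.70, 4.21 and 5.21 CPM, and 108, 125 and 128 CPM against 178, 144 and 157 CPM. The limma adjusted p was 0.289 and 0.617. Prickle1 (-0.52), Kremen1, a Dickkopf receptor (-0.20), and Cd44 (-0.75) were the others taken in mature adipocytes. In the stromal vascular fraction these were Tspan12, a partner of FZD4 (-0.24), Prickle1 (-0.26), Tle2 (-0.35), Ctnnbip1, an inhibitor of beta-catenin (-0.35), and Bambi (-0.51).

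The difference between the genotype differences of the fractions was tested directly, and 0 of the 39 genes passed. In limma 0 of 14193 genes passed (0%), with 1267 (8.93%) at an unadjusted p under 0.05, 4 of the 39 (10.3%) among them. Without Kdm5c+/– mature adipocyte library 3, 7 genes passed and 1945 had an unadjusted p under 0.05, with 0 of the 39 passing. With edgeR 0 passed, with 1427 at an unadjusted p under 0.05, and with DESeq2 65 passed. Fzd4 was lower with the Kdm5c+/– label in mature adipocytes and, at 287, 347 and 248 CPM against 243, 239 and 260.0 CPM, had a higher mean in the stromal vascular fraction, with overlap. The difference of the differences was -0.80 ± 0.21 (limma adjusted p = 0.445), and it passed in DESeq2 (-0.82, adjusted p = 0.0384). Fzd8 ran the other way, at 0.52 ± 0.18 (limma adjusted p = 0.509), with 13.8, 13.9 and 15.7 CPM against 18.8, 17.6 and 14.4 CPM in the stromal vascular fraction. For Dkk2 the value was 0.95 ± 0.19 (limma adjusted p = 0.445), but its mature adipocyte libraries held 1 to 6 reads, so that this value on the log2(CPM + 1) scale was set by the stromal vascular libraries. It came to 0.30 with edgeR and 0.28 with DESeq2, which model the reads. A difference in Dkk2 within mature adipocytes was not detectable at this depth.

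Exons of Wnt5a, Axin2, Fzd5, Wnt11, Fzd6, Sfrp2, Rspo3 and Wnt7b overlap an annotated gene on the opposite strand. The libraries were strand-specific per the labels' protocols, but the sources used here do not state whether the counting used the strand, so their values may include reads of those genes.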

How the data were processed

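Libraries came from pools of 2 mice, per the labels' protocols, with 3 pools per group, so p-values between labels measure the spread between pools. The fits of the fractions and of the difference of differences treated the 12 libraries as independent, although the replicate numbers pair the fractions. A replicate block was run as an alternative. The deposited values are CPM. The submitters' processing notes name GRCm38, edgeR 3.26.8 and STAR 2.7.2a. The sources used here do not state the counting tool, the annotation or any filter. Dividing by the smallest step of each column gave whole reads for 100% of values (tolerance 0.05 read). Floors cover counting error only, and 95% intervals are those of the limma fits.

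Testing used limma 3.58.1 (R 4.3.3; lmFit, then eBayes, trend and robust) on log2(CPM + 1) for every gene that reached 1 CPM in 3 of a comparison's libraries, two-sided, with Benjamini-Hochberg adjustment over all genes tested and a threshold of 0.05. A fold on this scale understates the change of low genes. The fractions and the difference of differences were fitted on 12 libraries, the labels on 6 each. Positions and exon lengths came from GENCODE mouse release 21 and promoters from RefSeq. A set of 23 gene symbols had been turned into dates. These rows stayed among the genes listed and, where they passed the filter, among all genes tested.

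The gene families and the other gene lists were chosen with earlier results of these data known, and the members are all genes of the table with a symbol of these families. Values per library, or the range and median over the 6 libraries of a fraction, were given for Dkk2, Wnt2 and Axin2, the 6 members per direction that differed most between fractions, 5 by p in each genotype comparison, 3 by p in the difference of differences and the 6 with the highest CPM per kb. Of the other lists, 4 genes by p between fractions and 2 by p between labels were named. Nkd1 and Myc were added as the remaining target genes higher in mature adipocytes. Genes of these lists that entered the test through 1 fraction only were named as well. Replicate numbers pair the fractions: the deviations from the group means of libraries with the same label and number correlated at 0.169 to 0.278 across genes in all 6 pairs. Alternatives were a pseudocount of 0.25, no filter, a filter on the mean (5 CPM), scaling by quantiles or by median-of-ratios, edgeR 4.0.16 and DESeq2 1.42.0 on the recovered reads, a replicate block, leaving out each library, wild-type libraries alone (fractions) and all 12 libraries in the fit (labels). The fitting steps were tested on simulated data. Figures were drawn with matplotlib 3.10.9 in Python 3.11.15, with numpy 2.4.6 and pandas 2.3.3.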

Additional observations from a re-analysis of the deposited data

How the results depend on the processing

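Between fractions, the 7 members higher in mature adipocytes passed under all alternatives run; with a mean of at least 5 CPM, fewer members were tested and 25 passed. All genes past the threshold were 4072 higher and 8394 lower in mature adipocytes, against 5721 and 6550 with median-of-ratios scaling, 6612 and 5776 with quantile normalization, 6063 and 6145 with edgeR, and 5768 and 6530 with DESeq2. Wnt9a turned from -0.50 to 0.58 under quantile normalization. Between labels in mature adipocytes, DESeq2 called 250 genes and 1 member (Fzd4), the fit of all 12 libraries 1 gene, and leaving out 1 library 0 to 3 genes (3 without Kdm5c+/– library 3). In the stromal vascular fraction, DESeq2 called 53 genes and 1 member (Dkk2), the fit of all 12 libraries 4 genes and 1 member (Dkk2), and leaving out 1 library 0 genes. For the difference of differences, DESeq2 called 65 genes and 1 member (Fzd4), and leaving out 1 library 0 to 7 genes (7 without Kdm5c+/– mature adipocyte library 3). Leaving out 1 library, Wnt2 ran from -0.24 (without wild-type stromal vascular library 2) to 0.20 between labels and from -0.35 to 0.09 in the difference of differences. The cause was not tested in any of these. Members under 3 reads in mature adipocytes are limited by depth.

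With a replicate block, 12503 genes and 38 members passed between fractions, 0 genes between labels in mature adipocytes, 0 in the stromal vascular fraction (1 without it) and 0 in the difference of differences. Between labels, libraries of one number shared only the number: their deviations correlated at -0.0264 to 0.341 in mature adipocytes and -0.281 to 0.184 in the stromal vascular fraction.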
